A study of Mus musculus with 24 samples.

Results

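The flavin-containing monooxygenase (FMO) genes studied here are *Fmo1*, *Fmo2*, *Fmo4* and *Fmo5*, described in liver and duodenum of mice with and without a functional *Hfe* gene. These 4 genes, of 18194 named in the annotation of the array, were read through the 10 probe sets, of 45101, whose only gene symbol is one of these names: 1 for *Fmo1*, 5 for *Fmo2*, 1 for *Fmo4* and 3 for *Fmo5*. Of the 10, 9 passed the filter on low signals and were tested, among 28061 probe sets in all. In the counts below each tested probe set is a member, so that probe sets of the same gene count separately and are not independent. RNA was measured on 24 arrays in 8 groups of 3, from males aged 7 weeks. The groups were liver and duodenum of wild-type (WT) C57BL/6 (B6) mice, *Hfe*-/- (KO) B6 mice, WT DBA/2 (D2) mice and KO D2 mice. The paper states that 3 mice of each strain and genotype were profiled. The labels do not say which liver and duodenum arrays came from the same mouse, and the main tissue comparisons did not pair them. *Hfe*-/- mice lack the protein throughout the body. All mice were fasted before they were killed. The KO mice were bred in the animal facility of the study and the WT mice were purchased, so that origin and genotype cannot be told apart.

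FMO enzymes sit in the membrane of the endoplasmic reticulum, hold an FAD cofactor and use NADPH and oxygen to add an oxygen atom to soft nucleophiles, mostly nitrogen and sulfur atoms of drugs, dietary amines and thioethers. In mice FMO1 also oxidizes hypotaurine to taurine. FMO2 is best known as the FMO of lung, FMO4 is the least studied of these enzymes, and FMO5 is set apart by its preference for inserting oxygen next to a carbonyl group (the Baeyer-Villiger reaction). *Fmo4* (chr1:162793188-162816072), *Fmo1* (chr1:162829561-162866610) and *Fmo2* (chr1:162874317-162898758) lie in this order on mouse chromosome 1, and *Fmo5* (chr3:97609938-97655287) lies on chromosome 3, in the GRCm38.p6 build of RefSeq.

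Sequences around annotated start sites are shown for the genes that followed different patterns in liver: *Fmo2* and *Fmo4*, whose signals ran in parallel, and *Fmo5*, whose signal did not. Each window holds 250 bases before and 50 bases from the start site onward, 5′ to 3′ on the strand of the gene, from RefSeq (GRCm38.p6), with matches to the motifs searched in capitals. Windows were given for 3 of the 4 genes.
Fmo2 window 1 (chr1:162898709-162899008, minus strand): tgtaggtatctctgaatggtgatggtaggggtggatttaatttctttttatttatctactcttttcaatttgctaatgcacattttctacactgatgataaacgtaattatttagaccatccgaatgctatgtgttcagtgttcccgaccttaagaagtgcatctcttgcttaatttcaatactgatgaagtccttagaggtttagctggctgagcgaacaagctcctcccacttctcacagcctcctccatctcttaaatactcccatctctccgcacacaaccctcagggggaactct
Fmo2 window 2 (chr1:162898444-162898743, minus strand): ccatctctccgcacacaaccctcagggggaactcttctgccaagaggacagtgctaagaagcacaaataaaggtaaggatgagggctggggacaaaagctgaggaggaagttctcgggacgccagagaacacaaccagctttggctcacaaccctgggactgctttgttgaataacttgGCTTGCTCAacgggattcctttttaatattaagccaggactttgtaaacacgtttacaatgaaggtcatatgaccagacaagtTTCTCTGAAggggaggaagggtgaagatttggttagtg
Fmo4 (chr1:162812500-162812799, minus strand): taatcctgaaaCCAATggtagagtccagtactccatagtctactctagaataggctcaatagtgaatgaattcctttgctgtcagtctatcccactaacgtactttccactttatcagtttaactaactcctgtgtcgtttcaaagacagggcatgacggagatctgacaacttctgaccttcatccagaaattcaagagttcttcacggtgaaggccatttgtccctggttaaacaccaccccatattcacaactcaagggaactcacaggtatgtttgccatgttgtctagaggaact
Fmo5 (chr3:97628769-97629068, plus strand): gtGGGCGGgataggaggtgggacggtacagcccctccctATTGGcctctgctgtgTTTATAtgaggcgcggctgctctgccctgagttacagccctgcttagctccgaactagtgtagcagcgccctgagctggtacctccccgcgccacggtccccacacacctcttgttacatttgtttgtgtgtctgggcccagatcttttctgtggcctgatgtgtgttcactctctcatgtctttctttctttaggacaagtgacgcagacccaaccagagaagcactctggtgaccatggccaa
The *Fmo2* windows belong to separate annotated starts and share 35 bases. The start sites of the *Fmo4* and *Fmo5* windows lie inside the annotated span of these genes. Motifs were searched on both strands, with the start base counted as 1 and the base before it as -1. They were the TATA box TATAAA, the CCAAT box CCAAT, the GC box GGGCGG, the core of the antioxidant response element TGANNNNGC, the core of the interferon-stimulated response element, which 3.44% of all windows hold and none of these, and the STAT site TTCNNNGAA. No match was found in *Fmo2* window 1. *Fmo2* window 2 held an antioxidant response element core at -71 on the reverse strand and a STAT site at 13, motifs that 41.3% and 8.3% of all 32851 windows hold. The *Fmo4* window held a CCAAT box at -239 (37.4% of windows). The *Fmo5* window held a GC box at -248 (35.7% of windows), a CCAAT box on the reverse strand at -211 and a TATA box on the reverse strand at -195 (13.6% of windows). GC content was 41.3% and 47.7% for the *Fmo2* windows, 42.7% for *Fmo4* and 56% for *Fmo5*, against a median of 52.7% over all windows. A match is a string of letters and no evidence of binding.

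The *Hfe* transcript, which the knockout disrupts, had a signal of 434 to 691 on the 6 WT liver arrays and 70.4 to 98.8 on the 6 KO liver arrays, and of 76.6 to 105 and 15.7 to 45.1 on the WT and KO duodenum arrays. The genotypes therefore matched the labels. Signals are MAS5 values on a linear scale, which the authors had scaled so that each array has the same trimmed mean of 100. The 8 measured hepatocyte markers of 10 listed summed to 69450 to 102500 on liver arrays and to 86.1 to 175 on duodenum arrays. The 7 measured enterocyte markers of 8 summed to 28280 to 36710 on duodenum arrays and to 2496 to 7856 on liver arrays. Markers of pancreatic acinar cells (10 of 12 measured) were also high in duodenum, from 12740 to 91690 on 10 arrays and 2235 and 2936 on D2 KO 2 and D2 KO 3, where a name such as D2 KO 2 gives strain, genotype and replicate. Tissue RNA does not tell fewer cells of a type from less RNA per cell.

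*Fmo1* was higher in liver than in duodenum. Its probe set (1417429_at) had signals of 1308, 1353 and 1430 on the B6 WT liver arrays and 39, 42.4 and 40.6 on the B6 WT duodenum arrays. On the D2 WT arrays it had 1791, 1615 and 1904 in liver and 36.2, 42.5 and 37.4 in duodenum. The tissues were far apart on every array. The log2 difference, liver minus duodenum, was 5.07 in B6 (standard error 0.11, limma adjusted p = 9.5e-19, n = 3 per group) and 5.51 in D2 (standard error 0.11, adjusted p = 2.76e-19). No detection calls were used, so that the duodenum signals were not told apart from background. No hybridization run (a set of arrays started within 30 minutes) held WT liver and WT duodenum of the same strain. With run as a block over the 24 arrays, a fit chosen after seeing the data that links the tissues through a run shared by D2 liver and B6 duodenum, the differences were 5.21 in B6 (standard error 0.21, limma adjusted p = 2.84e-11) and 5.91 in D2 (standard error 0.22, adjusted p = 2.96e-11). In that run the liver arrays were on station 1 and the duodenum arrays on station 2 (the station recorded for each array). The block therefore did not take station out of the tissue differences.

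Of the 9 members tested, 6 were higher in liver and 1 was lower (adjusted p of 0.01 or less, limma) in B6 WT mice, and 6 were higher and 0 lower in D2 WT mice, with 8 members at an unadjusted p under 0.05 in each strain (60% and 59.1% of all probe sets). The called members belonged to 4 genes in B6 and 3 in D2. Of all probe sets tested 44.7% were called in B6 and 44.4% in D2. Those called as higher in liver were 18.5% and 18.2% of all probe sets, and those called as lower 26.2% in each strain. With run as a block, 3 members were called in B6 and 2 in D2, all as higher in liver, against 21% and 17.3% of all probe sets. They were *Fmo1* and 1440899_at of *Fmo5* in each strain and 1450332_s_at of *Fmo5* in B6. The median log2 difference over the members was 1.08 in B6 and 1.02 in D2, where the median over all probe sets was -0.21 and -0.20. *Fmo5* was higher in liver with all 3 probe sets, by 0.97 (1450332_s_at), 1.08 (1421709_a_at) and 2.31 (1440899_at) on the log2 scale in B6 and by 0.74, 0.89 and 2.06 in D2. *Fmo2* was higher in liver with 1435459_at, by 1.33 in B6 (standard error 0.37, adjusted p = 0.00414) and 1.52 in D2 (standard error 0.37, adjusted p = 0.00142), and with 1453435_a_at, by 1.02 in each strain. With run as a block these *Fmo2* probe sets were not called (limma adjusted p of 0.0471 to 0.0983), with differences of 1.92 and 1.60 in B6 and 2.25 and 1.60 in D2. Leaving out a single array could end the calls of these *Fmo2* probe sets and of 1421709_a_at in each strain, and that of 1450332_s_at in D2. The number of members called fell to 4 in B6 without B6 WT 2 of duodenum, and in D2 to 2 without D2 WT 3 of liver and to 3 without D2 WT 2 of duodenum.

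*Fmo4* followed another order. In B6 WT mice its probe set (1425799_at) had signals of 52.9, 75.1 and 57.6 in liver and 181, 136 and 107 in duodenum. All liver arrays were below all duodenum arrays, and the log2 difference was -1.17 (standard error 0.25, limma adjusted p = 0.000434). With run as a block it was -0.79 (standard error 0.49, adjusted p = 0.248) and was not called. In D2 WT mice the signals were 112, 142 and 176 in liver and 128, 95.2 and 114 in duodenum, so that the tissues overlapped, with a log2 difference of 0.34 (95% interval -0.18 to 0.86, adjusted p = 0.265). Whether the tissue difference itself differed between the strains was not tested.

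**Figure D1:**
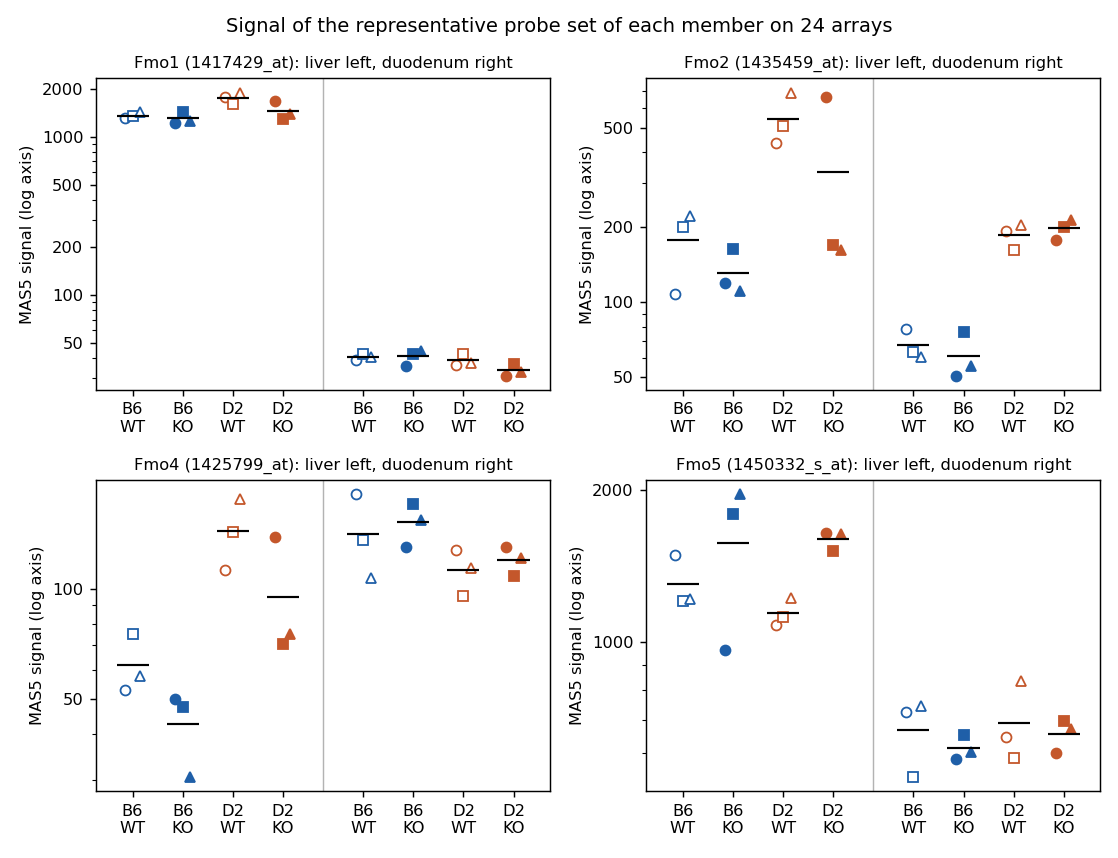
MAS5 signal (log axis) of the representative probe set of each gene on each of the 24 arrays, by tissue, strain and genotype. Open symbols are WT and filled symbols KO, with B6 in blue and D2 in orange. Replicate 1 is a circle, 2 a square and 3 a triangle, and each bar is the mean of 3 mice. *Fmo1* separates liver (1220 to 1904) from duodenum (31 to 44.5) on every array, and for *Fmo2* and *Fmo4* the liver array D2 KO 1 lies with the D2 WT arrays.

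*Fmo2* differed between the strains in duodenum. The signals of 1435459_at in duodenum were 78.4, 63.5 and 60.3 in B6 WT mice and 193, 163 and 204 in D2 WT mice. In KO mice they were 50.9, 76.3 and 55.4 in B6 and 178, 201 and 214 in D2. All 6 D2 arrays were above all 6 B6 arrays. The log2 difference, D2 minus B6, was 1.47 in WT mice (2.77-fold, standard error 0.17, limma adjusted p = 0.000122) and 1.72 in KO mice (3.29-fold, standard error 0.17, adjusted p = 3.53e-05).

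The probe set 1453435_a_at gave the same picture, with duodenum signals of 62.3 to 82.4 in B6 WT, 58.2 to 68.4 in B6 KO, 192 to 215 in D2 WT and 190 to 214 in D2 KO mice. Its log2 difference was 1.55 in WT mice (standard error 0.13, limma adjusted p = 9.15e-06) and 1.68 in KO mice (standard error 0.13, adjusted p = 5.81e-06). The other tested *Fmo2* probe sets were not called. For 1422904_at the log2 difference was 0.71 (95% interval -0.11 to 1.54) in WT and 0.16 (-0.67 to 0.98) in KO mice, and for 1422905_s_at it was -0.17 (-0.73 to 0.39) and 0.20 (-0.36 to 0.76). In the naming of these arrays the suffix _a marks probes shared by alternative transcripts of a gene and _s probes that may match transcripts of more than one gene. The probe sequences were not used here, so that it was not tested which transcripts each set reads. The fifth *Fmo2* probe set, 1454005_at, had signals of 0.798 to 30.1 over the 24 arrays and was not tested.

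In these duodenum comparisons 2 of the 9 members were called in WT mice and 3 in KO mice (adjusted p of 0.01 or less), where 3.37% and 3.65% of all probe sets were called. They belonged to 1 gene in WT mice and 2 genes in KO mice. All called members were higher in D2, as were 1.28% and 1.79% of all probe sets. The third member in KO mice was 1440899_at of *Fmo5*. The D2 arrays of duodenum were hybridized in a run that held B6 KO 2 and B6 KO 3 and none of the B6 WT arrays. Within that run the KO mice differed at *Fmo2* by 1.6 (1435459_at) and 1.61 (1453435_a_at). There the D2 KO arrays were on station 2 and B6 KO 2 and B6 KO 3 on station 1. Strain and station therefore cannot be told apart within that run for the KO mice. With run as a block the WT differences were 1.12 (limma adjusted p = 0.128) and 1.36 (adjusted p = 0.0198), each above the threshold of 0.01 for strains, and the KO differences kept their calls (adjusted p = 0.000286 and 6.76e-05). With the acinar score of each array as a covariate, chosen after seeing the data, the KO differences were 1.7 and 1.66 (adjusted p = 0.000873 and 0.000192).

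**Figure D2:**
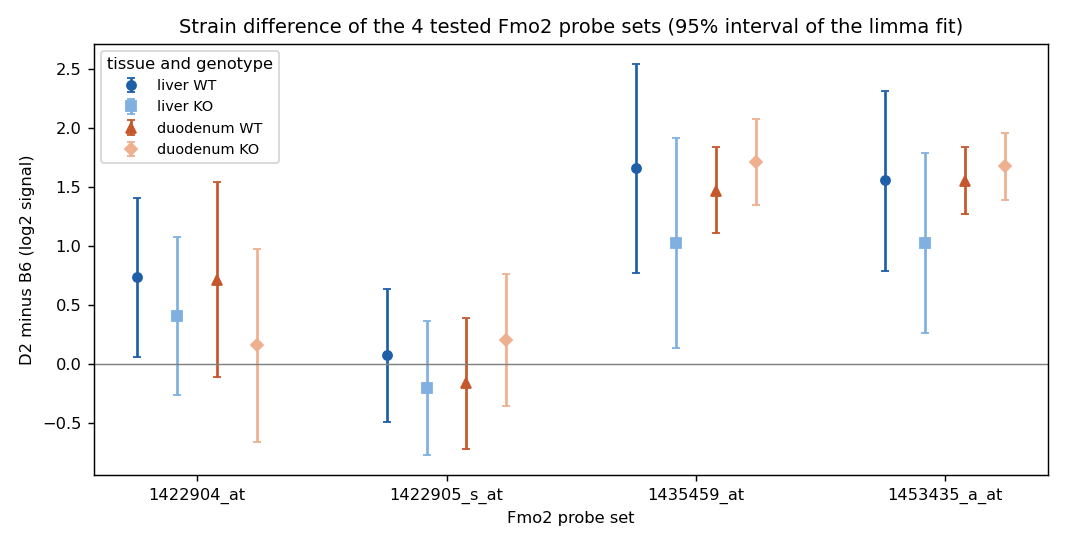
Log2 difference, D2 minus B6, of the 4 tested *Fmo2* probe sets in WT and KO liver and duodenum, with the 95% interval of the limma fit (3 mice per group). The duodenum differences of 1435459_at and 1453435_a_at lie between 1.47 and 1.72 with narrow intervals, and those of 1422905_s_at are -0.17 and 0.20.

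In liver the strain differences of these *Fmo2* probe sets pointed the same way but were more scattered. The liver signals of *Fmo2* (1435459_at) were 108, 201 and 223 in B6 WT and 435, 506 and 692 in D2 WT mice, with no overlap. The log2 difference of 1.66 (standard error 0.42) had an adjusted p of 0.0216 in limma, above the threshold of 0.01 for strains, and that of 1453435_a_at was 1.56 (standard error 0.36, adjusted p = 0.0126). Between WT livers the other tested *Fmo2* probe sets had 0.73 (1422904_at, limma adjusted p = 0.197) and 0.07 (1422905_s_at, adjusted p = 0.925). *Fmo4* had 112 to 176 in D2 WT liver and 52.9 to 75.1 in B6 WT liver, a log2 difference of 1.21 (standard error 0.27, adjusted p = 0.0116). *Fmo1* had 1615 to 1904 in D2 WT and 1308 to 1430 in B6 WT liver, a log2 difference of 0.37 (standard error 0.11, adjusted p = 0.0398).

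No *Fmo5* probe set was called between the WT livers, with log2 differences of -0.15 to -0.21 and adjusted p values of 0.487 to 0.786 in limma. In all, 0 of the 9 members were called between WT livers, where 4.35% of all probe sets were, and 5 had an unadjusted p under 0.05 (20.6% of all probe sets). Between KO livers 0 of 9 were called against 4.73% of all probe sets, and 3 had an unadjusted p under 0.05 (21.3% of all). The WT count was sensitive to how the spread was estimated. It was 3 with only the 6 arrays compared and 3 without D2 KO 1, an array outside the comparison, the members being *Fmo2* (1435459_at and 1453435_a_at) and *Fmo4* each time. With run as a block it was 0, with log2 differences of 1.44 and 1.36 for these *Fmo2* probe sets and 1.14 for *Fmo4*. In the only run with WT livers of both strains, D2 WT 1 differed from the 3 B6 WT arrays by 1.37 for *Fmo2* (1435459_at), 0.87 for *Fmo4* and 0.39 for *Fmo1*. D2 WT 1 was on station 2 and these B6 WT arrays on station 1, so strain and station cannot be told apart there.

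The comparison of KO with WT mice asks which transcripts change when *Hfe* is lost. In D2 liver 0 of the 9 members passed the adjusted p of 0.1 set for knockout effects (limma), against 2.75% of all probe sets, and 5 had an unadjusted p under 0.05 (13.3% of all). *Fmo1* had 1791, 1615 and 1904 in D2 WT and 1682, 1292 and 1394 in D2 KO liver. *Fmo2* (1435459_at) had 435, 506 and 692 in D2 WT and 666, 169 and 162 in D2 KO liver. *Fmo4* had 112, 142 and 176 in D2 WT and 138, 70.4 and 75.3 in D2 KO liver. In each of these genes D2 KO 1 lay among the WT arrays and D2 KO 2 and D2 KO 3 lay below all of them.

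The log2 differences, KO minus WT, were -0.29 for *Fmo1* (standard error 0.11, limma adjusted p = 0.233), -1.02 for *Fmo2* (standard error 0.42, adjusted p = 0.296) and -0.65 for *Fmo4* (standard error 0.27, adjusted p = 0.317). Without D2 KO 1 they were -0.40 (adjusted p = 0.0379), -1.69 (adjusted p = 0.00225) and -0.95 (adjusted p = 0.056), and 6 members were called, all as lower: *Fmo1*, *Fmo4* and the 4 tested *Fmo2* probe sets. Without it 6.2% of all probe sets were called, and 3.4% as lower. D2 KO 1 lay with the WT arrays for these genes, so the larger differences and smaller p values without it follow from this choice. They are no separate support. Without D2 KO 2, or without D2 KO 3, 0 members were called. The *Hfe* signal of D2 KO 1 was 82.9, against 70.4 and 82.9 on the other D2 KO arrays. Its hepatocyte markers summed to 83360, against 102500 and 95220 on D2 KO 2 and D2 KO 3 and 83370 to 88740 on the D2 WT arrays. Its acinar markers summed to 652, against 1243 and 1250 on D2 KO 2 and D2 KO 3 and 456 to 490 on the D2 WT arrays, with 7 to 9 of the 10 markers under a signal of 20 on each of these 6 arrays. The part of these markers in the result was not tested. The 3 D2 KO arrays shared their run with D2 WT 3 alone, the highest of the D2 WT arrays for all 3 genes, and within that run the differences were -0.40 for *Fmo1*, -1.39 for *Fmo2* and -0.96 for *Fmo4*.

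**Figure D3:**
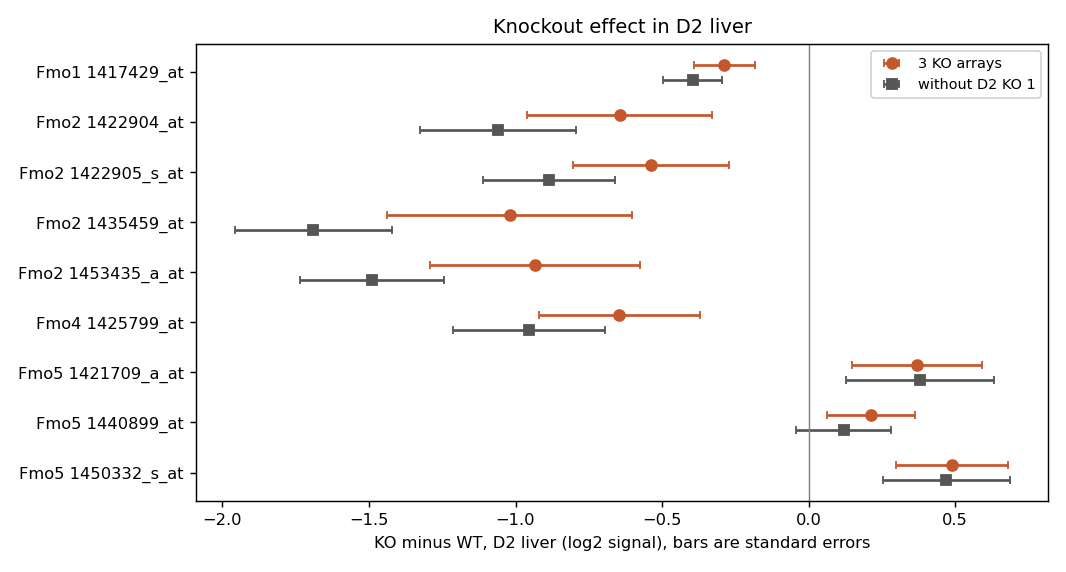
Log2 difference, KO minus WT, of the 9 tested probe sets in D2 liver with all 3 KO arrays (circles) and without D2 KO 1 (squares). Bars are standard errors of the limma fit. The differences of *Fmo1*, *Fmo2* and *Fmo4* are below 0 in each fit and farther from 0 without D2 KO 1, and those of *Fmo5* are above 0 in each fit. D2 KO 1 lay among the WT arrays for *Fmo1*, *Fmo2* and *Fmo4*, so that their shift follows from leaving it out.

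*Fmo5* lay on the other side of 0 in D2 liver. The probe set 1450332_s_at had 1077, 1118 and 1219 in WT and 1642, 1515 and 1633 in KO mice. The groups did not overlap, and the same held for 1421709_a_at (246 to 333 and 360 to 383) and 1440899_at (604 to 681 and 686 to 852). These probe sets are of 1 gene and not independent, and the share of all probe sets without overlap was not counted. The log2 differences were 0.49 (standard error 0.19, limma adjusted p = 0.267), 0.37 (standard error 0.22, adjusted p = 0.515) and 0.21 (standard error 0.15, adjusted p = 0.598). For 1450332_s_at the call depended on the estimate of the spread, since the adjusted p was 0.0285 with only the 6 D2 liver arrays and 0.0251 without B6 KO 1. Within the run of the D2 KO arrays the difference of 1450332_s_at was 0.39.

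In B6 liver 0 of the 9 members were called between KO and WT mice (limma), against 1.02% of all probe sets, and 0 had an unadjusted p under 0.05 (11.5% of all). *Fmo1* had 1220, 1442 and 1268 in B6 KO and 1308, 1353 and 1430 in B6 WT liver, with a log2 difference of -0.06 (95% interval -0.29 to 0.17). *Fmo2* (1435459_at) had 119, 164 and 111 in B6 KO liver against 108, 201 and 223 in the WT, with a log2 difference of -0.38 (95% interval -1.28 to 0.51). *Fmo4* had 50.1, 47.4 and 30.5 in B6 KO liver, all below the lowest WT array at 52.9, with a log2 difference of -0.55 (95% interval -1.14 to 0.03, adjusted p = 0.464). The intervals for *Fmo2* and *Fmo4* leave room for sizeable changes in either gene.

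*Fmo5* varied most in B6 KO liver, where 1450332_s_at had 962, 1795 and 1960 and the WT arrays had 1485, 1203 and 1216. B6 KO 1 was the lowest of all 12 liver arrays and the other 2 the highest. Its log2 difference was 0.21 (standard error 0.19, limma adjusted p = 0.729), and 0.53 (adjusted p = 0.0696) without B6 KO 1. The difference between the D2 and B6 effects was called for 0 of 9 members, against 0.214% of all probe sets, with 0 at an unadjusted p under 0.05 (9.74% of all). It was -0.64 for *Fmo2* (95% interval -1.9 to 0.63), -0.09 for *Fmo4* (-0.92 to 0.73), -0.23 for *Fmo1* (-0.55 to 0.09) and 0.28 for *Fmo5* (1450332_s_at, -0.3 to 0.85).

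In duodenum the knockout comparisons called 0 of 9 members in each strain (limma), against 0.378% of all probe sets in D2 and 0.0107% in B6, with 1 and 0 members at an unadjusted p under 0.05 (11.8% and 5.66% of all). The signals of *Fmo2* (1435459_at) were 163 to 204 in D2 WT and 178 to 214 in D2 KO mice, a log2 difference of 0.09 (95% interval -0.28 to 0.45). In B6 the difference was -0.16 (-0.53 to 0.20). *Fmo4* had 130, 108 and 121 in D2 KO and 130, 170 and 154 in B6 KO mice, and log2 differences of 0.10 in D2 (-0.30 to 0.50) and 0.13 in B6 (-0.27 to 0.53), and 1450332_s_at of *Fmo5* of -0.06 (-0.37 to 0.25) and -0.11 (-0.42 to 0.20). For *Fmo1*, with signals of 31 to 44.5, they were -0.21 (-0.59 to 0.17) and 0.01 (-0.37 to 0.38).

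The member with the unadjusted p under 0.05 in D2 duodenum was 1440899_at of *Fmo5*. Its signals were 120, 160 and 193 in D2 WT and 208, 264 and 235 in D2 KO mice, which did not overlap. In B6 they were 165, 131 and 158 in the WT and 125, 131 and 117 in the KO, also without overlap and in the other direction. The log2 differences were 0.60 in D2 (standard error 0.16, limma adjusted p = 0.192) and -0.28 in B6 (standard error 0.16, adjusted p = 0.874). The difference between these effects was 0.88 (standard error 0.23, adjusted p = 0.302), and 0 of 9 members were called in this comparison, against 0.0143% of all probe sets, with 1 at an unadjusted p under 0.05 (10.4% of all). D2 WT 1 and D2 WT 2 were on station 1, and D2 WT 3 and the D2 KO arrays on station 2. The part of the station in the D2 difference was not tested.

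Between KO mice this probe set was higher in D2 than in B6 duodenum by 0.92 (standard error 0.16, limma adjusted p = 0.00347), and within the shared run by 0.92. In the shared run strain and station cannot be told apart, with the D2 KO arrays on station 2 and B6 KO 2 and B6 KO 3 on station 1. That call was lost without B6 KO 1 (adjusted p = 0.0142), B6 KO 3 (0.0189), D2 KO 2 (0.0234) or D2 KO 3 (0.0169), with run as a block (0.0145), with no trend in the fit (0.0132) and with the acinar score as a covariate (0.78, adjusted p = 0.0594). The acinar markers of D2 KO 2 and D2 KO 3 were the lowest of the 12 duodenum arrays, and their part in the result was otherwise not tested. The other *Fmo5* probe sets had log2 differences of 0.13 (1421709_a_at, 95% interval -0.38 to 0.63) and 0.09 (1450332_s_at, -0.22 to 0.40) in the same comparison. The *Fmo5* probe sets therefore did not agree in duodenum.

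**Figure D4:**
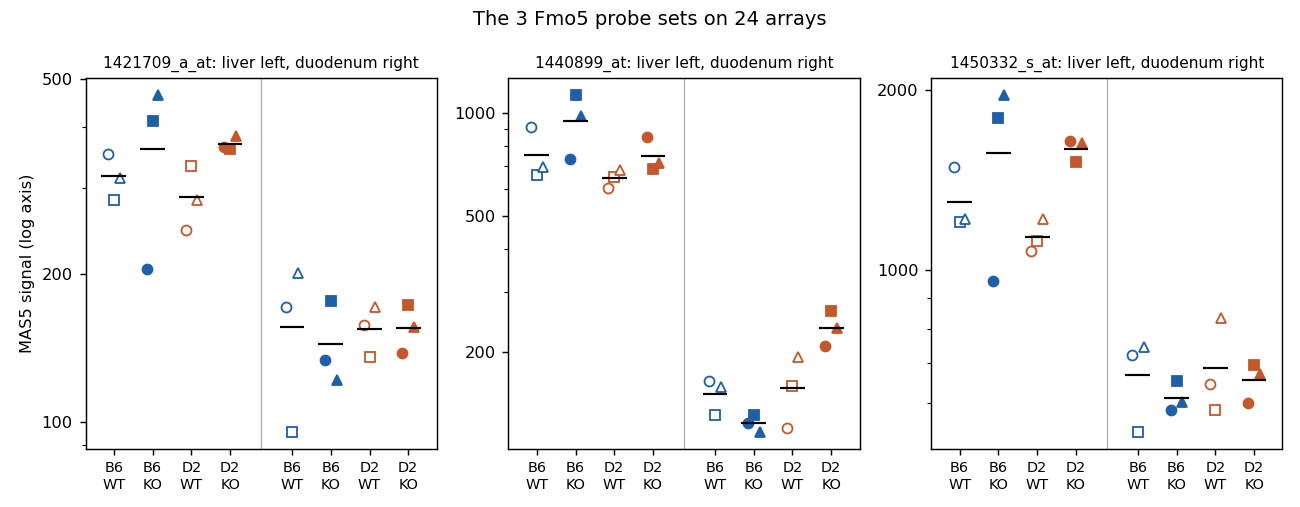
MAS5 signal (log axis) of the 3 *Fmo5* probe sets on each of the 24 arrays, with symbols and bars as in the plot of the representative probe sets. In D2 liver all KO arrays lie above all WT arrays for each probe set, and in D2 duodenum this holds for 1440899_at alone (120 to 193 in WT and 208 to 264 in KO). None of these differences was called, and the share of all probe sets without overlap was not counted.

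The order of the group means summed up these patterns. For *Fmo1* it ran from D2 WT liver (1770 ± 146, SD, n = 3) through D2 KO (1456 ± 202), B6 WT (1363 ± 61.8) and B6 KO liver (1310 ± 117) to the duodenum groups (33.5 to 41), with overlapping ranges between neighbors except from liver to duodenum. For *Fmo2* (1435459_at) it ran from D2 WT liver (544 ± 132) and D2 KO liver (333 ± 289) through D2 KO duodenum (198 ± 18.4), D2 WT duodenum (186 ± 21.4), B6 WT liver (177 ± 61) and B6 KO liver (131 ± 28.2) to B6 WT duodenum (67.4 ± 9.66) and B6 KO duodenum (60.9 ± 13.5). Its only neighbors without overlap were B6 KO liver and B6 WT duodenum. For *Fmo4* it ran from B6 KO duodenum (152 ± 20.2) through D2 WT liver (143 ± 31.9), B6 WT duodenum (141 ± 37.4), D2 KO duodenum (120 ± 10.9), D2 WT duodenum (112 ± 16.3), D2 KO liver (94.6 ± 37.8) and B6 WT liver (61.8 ± 11.7) to B6 KO liver (42.7 ± 10.6). Only the last pair of neighbors had no overlap. For *Fmo5* (1450332_s_at) the liver groups were D2 KO (1597 ± 70.9), B6 KO (1572 ± 535), B6 WT (1301 ± 159) and D2 WT (1138 ± 73.2), above the duodenum groups (614 to 689), and only D2 WT liver and the highest duodenum group, D2 WT, had no overlap as neighbors.

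Over the 12 liver arrays *Fmo1*, the representative probe set of *Fmo2* and *Fmo4* ran in parallel. Pearson's r of log2 signal was 0.93 between *Fmo1* and *Fmo2* (1435459_at), 0.93 between *Fmo2* and *Fmo4* and 0.85 between *Fmo1* and *Fmo4*. After the mean of each group was taken out it was 0.83, 0.82 and 0.60. In the 12 duodenum arrays the corresponding values were -0.58, -0.48 and 0.19, and after the group means were taken out 0.06, 0.69 and -0.21. In liver *Fmo5* (1450332_s_at) had -0.23 with *Fmo1*, -0.295 with *Fmo2* (1435459_at) and -0.40 with *Fmo4*. After the group means were taken out these were 0.305, 0.02 and -0.28. With the group means kept, 1422905_s_at of *Fmo2* had lower values in liver, 0.57 with *Fmo1*, 0.47 with *Fmo4* and 0.575 with 1435459_at. The *Fmo2* probe sets 1422904_at and 1453435_a_at had 0.92 and 0.94 with *Fmo1* and 0.79 and 0.93 with *Fmo4*. The part of D2 KO 1, which lay apart from the other D2 KO arrays, was not tested. These values describe arrays that share strain, genotype and run.

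**Figure D5:**
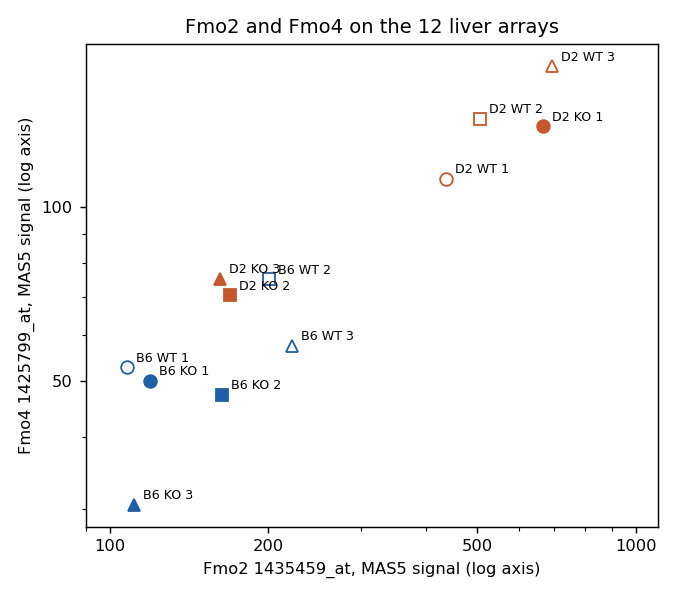
MAS5 signal of *Fmo4* (1425799_at) against that of *Fmo2* (1435459_at) on the 12 liver arrays, on log axes, with symbols as in the plot of the representative probe sets. D2 KO 1 lies among the D2 WT arrays, and D2 KO 2 and D2 KO 3 lie near the B6 WT arrays.

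Among 5969 genes with a mean liver signal of at least 100, those whose pattern over the 12 liver arrays was most like that of *Fmo1* were *Ifit1* (Pearson's r = 0.94), *Fmo2* (0.93) and *Irgm1* (0.93), and most like that of *Fmo2* were *Rnf213* (0.94), *Irgm1* (0.94) and *Fmo1* (0.93). *Ifit1* had 329, 321 and 449 in D2 WT and 301, 107 and 110 in D2 KO liver. *Irgm1* had 699, 741 and 637 in D2 WT and 611, 311 and 307 in D2 KO liver. These genes were picked for their likeness over the same arrays. That D2 KO 1 lay near the WT arrays in them follows from this choice and is no separate support. For *Fmo4*, whose mean is higher in duodenum, the genes most alike over the 12 duodenum arrays were *Pja1* (0.90), *Lpgat1* (0.88) and *Ceacam20* (0.85). Over liver, looked at after its liver pattern had been seen, they were *Mpeg1* (0.97), *Ifi47* (0.97) and *Atf5* (0.96). For *Fmo5* in liver they were *Mindy3* (0.87), *Clptm1* (0.80) and *Car14* (0.79).

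Genes around the FMO reaction were followed as 6 lists, with 38 of 46 genes measured. Of 7 measured genes for NADPH supply, 2 rose in B6 KO liver, *Tkt* (transketolase of the pentose phosphate pathway) by 0.58 on the log2 scale and *Me1* (malic enzyme) by 0.73. In D2 KO liver 0 of 7 were called and 1 had an unadjusted p under 0.05 (limma). Of all probe sets 1.02% were called in B6 and 2.75% in D2 liver. An unadjusted p under 0.05 was found for 11.5% and 13.3% of them. Of 4 measured genes listed for microsomal electron transfer, *Cyb5b* rose in both strains, by 0.58 in D2 (limma adjusted p = 0.017) and 0.73 in B6 (adjusted p = 0.00632). *Cyb5b* is a cytochrome b5 of the outer mitochondrial membrane and so is not microsomal, though listed here. *Cyb5r3*, the cytochrome b5 reductase, rose in D2 by 0.47 (limma adjusted p = 0.0732). The other 2 genes in D2 and 3 in B6 were not called. The signals of *Cyb5b* were 826 to 843 in D2 WT and 1051 to 1453 in D2 KO liver. In KO against WT liver of either strain limma called 0 of 4 measured genes for FAD synthesis, 0 of 5 for taurine and 0 of 6 for sulfur and amine conjugation. In D2 0, 0 and 1 of them had an unadjusted p under 0.05, and in B6 0, 1 and 2.

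Of 12 measured flavin and molybdenum oxidases, *Aox1*, an aldehyde oxidase, rose in KO liver of both strains. It had 455, 394 and 517 in D2 WT and 872, 1109 and 1150 in D2 KO liver, and 527, 531 and 512 in B6 WT and 1204, 1017 and 983 in B6 KO liver. The groups did not overlap in either strain, and the log2 differences were 1.19 in D2 (limma adjusted p = 0.000156) and 1.02 in B6 (adjusted p = 0.000955). *Aox3*, another aldehyde oxidase, rose in D2 by 1.62 (adjusted p = 0.00503). The other 10 in D2 and 11 in B6 were not called, where 2.75% and 1.02% of all probe sets were called. The median log2 difference of this list was 0.09 in D2 and 0.06 in B6, near the 0.02 and -0.01 over all probe sets.

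Strain differences were called in WT liver for several of these genes, where 4.35% of all probe sets were called. *Nnmt*, which methylates nicotinamide, was lower in D2 than in B6 WT liver, with a log2 difference of -4.41 (limma adjusted p = 1.75e-06), *Aox3* was lower with one of -3.06 (adjusted p = 9.84e-07), and *Tpmt*, which methylates thiopurines, was higher with one of 1.52 (adjusted p = 4.69e-07). *Tpmt* was also higher in D2 duodenum, by 1.81 (adjusted p = 8.31e-07), as *Fmo2* was. Of the 5 measured taurine genes, 3 were higher and 1 lower in liver than in duodenum in B6 WT mice, and 4 higher and 0 lower in D2 WT mice (limma, 4 at an unadjusted p under 0.05 in each). Of the 7 for NADPH supply 2 were higher and 4 lower in B6, and 1 was higher and 5 lower in D2. Shares over all probe sets were 18.5% and 18.2% higher and 26.2% lower in each strain, and these lists were not fitted with run as a block between the tissues. *Cdo1* and *Csad*, which lead from cysteine to hypotaurine, were higher by 6.87 and 4.56 on the log2 scale in B6.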

How the data were processed

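Total RNA of liver and duodenum was labeled and hybridized to Affymetrix mouse arrays, each array holding a single mouse and tissue. The authors made the deposited intensity values with MAS5 (version not given in the sources used here), scaled to a trimmed mean of 100. The authors' experiment files, a unit of no fixed kind (other), gave the hybridization start time, from which alone the hybridization runs were set. They also gave the station of each array, which no fit used. Log2 of each deposited signal was taken here with no pseudocount. The 64 control probe sets were left out, and probe sets whose third-highest signal over the arrays of liver or duodenum was at least 20 were kept (28061 of 45101). limma 3.58.1 in R 4.3.3 (lmFit, then eBayes with a trend) was fitted to the 12 arrays of each tissue, and to all 24 for the tissue comparisons, with Benjamini-Hochberg adjustment over the probe sets kept. A call needed an adjusted p of at most 0.1 for knockout effects and 0.01 for strains and tissues. The study's own score needs probe-level files, not used here. With 3 against 3 mice the smallest exact permutation p is 0.1. Where groups are said not to overlap, the share of all probe sets without overlap was not counted.

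Every probe set of the FMO genes studied is given, and a gene is represented by the brightest of its probe sets with 1 symbol (mean over all arrays). The 3 genes most alike were taken from the tissue where the mean of the FMO gene is higher. Of the probe sets, 34958 carry 1 symbol, 932 several and 9211 none. Members, lists and tests were chosen with earlier results of these data known. No arrays were identical (0 pairs). The arrays of each group are numbered 1 to 3, and same-numbered arrays did not deviate together. The fit was tested on simulated data. Some FMO family results are not reported here. Figures were drawn with matplotlib 3.10.9.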

Additional observations from a re-analysis of the deposited data

Results flagged for a closer look

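The *Fmo5* probe set 1440899_at in duodenum is flagged because its knockout effects point in opposite directions in the strains, with all 3 D2 KO arrays above all 3 D2 WT arrays and all 3 B6 KO arrays below all 3 B6 WT arrays. The effect in D2 minus that in B6 was 0.88 on the log2 scale (standard error 0.23, limma adjusted p = 0.302), so the test of the difference itself did not pass the threshold of 0.1. The gap in B6 was narrow, 130.8 for the highest KO array against 131.02 for the lowest WT array. In D2 the KO arrays were on station 2, as was D2 WT 3, and D2 WT 1 and D2 WT 2 were on station 1.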

How the results depend on the processing

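Over 2496 values of single members under the alternatives, 2401 kept their direction where called and their side of the threshold, 49 lost a call, 46 gained one, 0 were reversed, and 80 that were never called changed sign. The counts of members called moved as follows (limma, main count first). For D2 KO against WT liver it went from 0 to 1 with only the arrays compared, and ranged from 0 to 6 with 1 array left out (1 without B6 KO 1, 6 without D2 KO 1). For B6 KO against WT liver it ranged from 0 to 1 (1 without B6 KO 1). For WT livers of the strains it went from 0 to 2 with log2 of signal plus 16, 2 with no filter, 1 with a third-highest signal of at least 100, 4 at an adjusted p of 0.05 and 3 with only the arrays compared, and ranged from 0 to 3 with 1 array left out (3 without D2 KO 1, 1 without B6 KO 3 or D2 KO 2). For KO livers of the strains it was 1 at an adjusted p of 0.05. For D2 KO against WT duodenum it ranged from 0 to 1 (1 without D2 WT 3 or D2 KO 1). For WT duodenum of the strains it went from 2 to 0 with hybridization run as a block. For liver against duodenum it ranged from 4 to 8 in B6 and from 2 to 8 in D2 with 1 array left out, and went from 7 to 3 in B6 and from 6 to 2 in D2 with hybridization run as a block, an alternative chosen after seeing the data. That block moved the median of all probe sets from -0.21 to -0.10 in B6. The causes were not tested. Between liver and duodenum quantile normalization moved the median of all probe sets from -0.21 to -0.03 in B6 and from -0.20 to -0.03 in D2, and no call changed direction.

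Same-numbered arrays did not deviate together. Correlations of deviations from group means were -0.158 to 0.116 over 24 pairs within a tissue (1 over 0.1) and -0.0171 to 0.0329 over 12 pairs of liver with duodenum. Such values cannot tell whether a liver and a duodenum array came from the same mouse, since the tissues of a mouse need not deviate alike. With replicate number as a block 0 of 9 members were called in each liver comparison, 2 and 3 in the duodenum strain comparisons (WT and KO), and 7 and 6 between the tissues in B6 and D2, as without it. Signals near 20 and below limit 1454005_at, and 3 arrays per group leave intervals of more than 1 log2 unit for *Fmo2* in liver.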
